A study of Mus musculus with 9 samples.

Results

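The genes described here are 9 claudins (Cldn1, Cldn2, Cldn3, Cldn4, Cldn7, Cldn8, Cldn12, Cldn15 and Cldn23) and Tjp1, which encodes the tight junction scaffold ZO-1. They are 10 of the 18193 genes that the array measured with at least 1 probe set annotated to a single gene symbol. The rule took every probe set annotated to exactly 1 of these symbols, which gave 18 probe sets, and let the brightest one over all arrays stand for its gene. Of the 10 genes, 8 were bright enough to be tested, and Cldn1 and Cldn8 were not.

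RNA came from scraped mucosa of C57BL/6J mice, an inbred strain, all male and aged 9 weeks when they began a 2-week high-fat diet. The fat of the diet was palm oil in HF-PO, olive oil in HF-OO and safflower oil in HF-SO, so every group was on a high-fat diet, and low-fat mice were not analysed here. Each small intestine was cut into 3 equal lengths, the distal SI3, the middle SI2 and the proximal SI1, and the RNA of 6 mice was pooled for each length and diet. Each of the 9 pools was read on 1 Affymetrix array, so a segment has 3 replicates that differ in diet, SI3, SI2 and SI1 of 1 diet share their 6 mice, and p-values measure the spread between such pools and not between single animals.

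Tight junctions close the gap between neighbouring epithelial cells near their apical end. Claudins are the membrane proteins that form the strands of the junction, and the set of claudins in a strand decides whether ions and water leak through it or are held back. Cldn2 and Cldn15 form pores that let cations pass, Cldn2 also lets water pass, and in the small intestine both return sodium to the lumen, where it drives the uptake of glucose and other nutrients. Cldn1, Cldn3, Cldn4 and Cldn8 are counted among the sealing claudins, and Tjp1 ties claudins to the actin cytoskeleton.

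Promoters of 4 of these genes are shown because they belong to the genes whose profiles along the gut contrast most: Cldn2 was the tested claudin with the largest distal excess, Cldn15 the claudin that was lower distally, and Cldn3 and Cldn4 are neighbours on chromosome 5 of which Cldn3 passed the test and Cldn4 did not. Each runs 5′ to 3′ on the gene's own strand and covers 250 bases before and 50 bases after the RefSeq transcription start in the mouse build GRCm38.p6. Capitals mark matches to the motifs listed after the sequences, on either strand. The windows are chrX:139800558-139800857 on the plus strand for Cldn2, chr5:136967619-136967918 on the plus strand for Cldn15, chr5:134985964-134986263 on the plus strand for Cldn3 and chr5:134946885-134947184 on the minus strand for Cldn4.
Cldn2: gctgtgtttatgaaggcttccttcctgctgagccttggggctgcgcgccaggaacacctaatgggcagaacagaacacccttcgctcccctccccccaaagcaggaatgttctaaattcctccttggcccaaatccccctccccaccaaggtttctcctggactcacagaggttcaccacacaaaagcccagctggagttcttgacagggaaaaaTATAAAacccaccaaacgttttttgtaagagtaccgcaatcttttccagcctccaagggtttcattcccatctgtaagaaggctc
Cldn15: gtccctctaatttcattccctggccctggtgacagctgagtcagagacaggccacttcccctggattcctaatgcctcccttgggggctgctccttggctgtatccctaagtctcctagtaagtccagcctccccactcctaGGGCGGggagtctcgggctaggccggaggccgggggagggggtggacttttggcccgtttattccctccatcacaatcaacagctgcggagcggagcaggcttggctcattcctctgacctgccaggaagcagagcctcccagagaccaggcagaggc
Cldn3: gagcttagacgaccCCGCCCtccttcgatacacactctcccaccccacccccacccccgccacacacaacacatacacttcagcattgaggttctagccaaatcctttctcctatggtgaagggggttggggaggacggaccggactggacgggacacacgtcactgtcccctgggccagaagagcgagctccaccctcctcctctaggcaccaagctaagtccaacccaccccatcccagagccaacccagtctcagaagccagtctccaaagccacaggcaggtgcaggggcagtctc
Cldn4: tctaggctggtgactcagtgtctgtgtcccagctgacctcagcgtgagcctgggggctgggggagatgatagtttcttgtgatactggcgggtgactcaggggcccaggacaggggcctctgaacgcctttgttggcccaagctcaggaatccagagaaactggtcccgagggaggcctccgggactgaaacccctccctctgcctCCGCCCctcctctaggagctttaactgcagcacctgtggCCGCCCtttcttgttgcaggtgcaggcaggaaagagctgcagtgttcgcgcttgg

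RefSeq promoter windows matched 8 of the 10 genes, in 11 windows of 300 bases, because Cldn7 and Cldn12 have several starts. Cldn8 and Cldn23 are named only. The TATA box letters, TATAAA, were found in Cldn2 alone of these 8 genes, at 35 bases before the start (position -35), and 13.6% of all 32851 RefSeq mouse promoter windows of this length hold them. The letters GGGCGG, the GC box read by SP1 and KLF factors, were found at -108 in Cldn15, at -236 in Cldn3, at -44 and -5 in Cldn4, at -68 and -50 in Tjp1, at -42 and -14 in Cldn1, in 2 of the 3 Cldn12 windows and in 1 of the 2 Cldn7 windows, against 35.7% of all windows. The 2 Cldn12 windows overlap, and their match is 1 and the same site. The Cldn2 window held no GGGCGG on either strand. GTTAAT, which HNF1 reads in pairs, stood at -241 in Cldn1 (7.1% of all windows). No window of these genes held TTTATNG of CDX factors (10.9%), AGATAAG of GATA factors (3.04%), CAAAGTCCA of HNF4 (0.475%), AACCNGTT of GRHL factors (2.09%), CTTTGAT of TCF and LEF factors (3.73%) or the direct repeat of the vitamin D receptor (0.00609%). These matches describe letters in a window and no binding was measured.

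The arrays were on 1 scale: the 2% trimmed mean of the deposited signals was equal on all of them, median signals lay between 94.4 and 105.9, and arrays of 1 segment correlated at 0.984 to 0.987 on the log2 scale. The enterocyte markers Vil1 and Krt20 were bright on all 9 arrays, at 30974 to 33368 and 28458 to 31346 in SI3 and at 24595 to 29981 and 25838 to 32858 in SI1. 1 array stands apart: the SI1 array of HF-PO had Tff2, a product of gastric and duodenal glands, at 4474, against 374 and 693.3 in the other SI1 arrays, and the changes of the 8 tested genes against SI1 and the counts of the junction lists between SI3 and SI1 are given with and without it. Summed signals of 7 exocrine pancreas markers were 297.3 to 483.7 in SI3 and 29956 to 39000 in SI1, although the labels say that adhering pancreas was removed. Scrapings are bulk tissue, in which fewer cells of a type and less RNA per cell cannot be told apart.

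Along the small intestine most of the 8 tested genes were higher distally. Between SI3 and SI1, 6 of the 8 tested genes rose (Cldn2, Cldn3, Cldn7, Cldn12, Cldn23 and Tjp1), Cldn15 fell, and Cldn4 did not pass the test. Of all 10977 tested genes, 25.2% were higher in SI3 and 20.4% lower in SI3 by the same rule, an adjusted p under 0.05 in limma with the diet pool as a block. The median change of the 8 genes was 0.50 on the log2(signal + 16) scale, against 0.07 for all tested genes. Between SI2 and SI1 only Cldn23 passed, higher in SI2, and none of the 7 others did, where 7.23% of all genes were higher and 7.83% lower in SI2. Between SI3 and SI2, Cldn2, Cldn3 and Cldn7 were higher in SI3 and Cldn15 was lower in SI3, against 11.5% of all genes higher and 11.9% lower. Over the 3 segments together, 6 of the 8 genes passed the F test (Cldn2, Cldn3, Cldn7, Cldn15, Cldn23 and Tjp1), against 42.0% of all genes. The median change of the 8 genes was 0.28 between SI3 and SI2 and 0.12 between SI2 and SI1, against 0.04 and 0.02 for all genes.

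**Figure D1:**
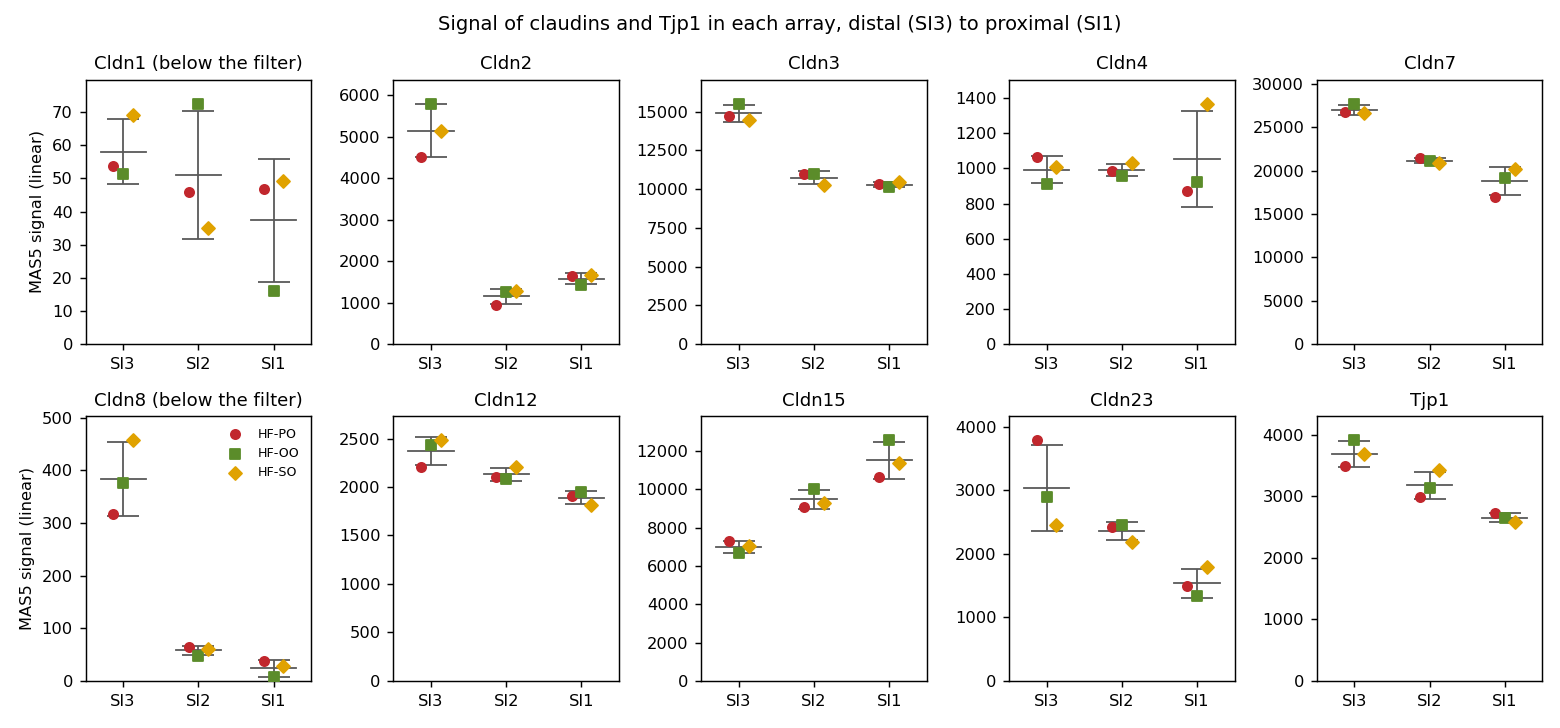
Deposited MAS5 signal (linear, each panel from 0 on its own scale) of the 10 genes in each array, with SI3, SI2 and SI1 from left to right; points are the HF-PO, HF-OO and HF-SO pools, and the bar with whiskers is the mean ± SD of the 3 pools. Cldn2 and Cldn8 stand highest in SI3, Cldn15 is lowest there, and the 3 segments overlap for Cldn4; panels are not comparable with each other because probe sets differ in brightness.

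Of the pore-forming claudins, Cldn2 had the largest change of the 8 tested genes. Its signal was 4506 (HF-PO), 5793 (HF-OO) and 5130 (HF-SO) in SI3, against 941.3, 1254 and 1271 in SI2 and 1635, 1422 and 1674 in SI1, with the diets in the same order. Every SI3 array lay above every array of the other segments, and every SI2 array lay below every SI1 array. SI3 exceeded SI1 by 1.69 ± 0.13 (log2, SE; 95% interval 1.38 to 2.01; 3.23-fold; adjusted p = 0.000121 in limma), in 3 of 3 pools. SI3 exceeded SI2 by 2.14 ± 0.13, or 4.42-fold (adjusted p = 0.000239).

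The profile of Cldn2 therefore had its lowest point in the middle of the gut on this probe set, but the dip did not pass the test. SI2 minus SI1 was -0.45 ± 0.13 (95% interval -0.77 to -0.14; adjusted p = 0.0637), negative in 3 of 3 pools. It was -0.31 (adjusted p = 0.172) without the SI1 array of HF-PO and -0.29 (adjusted p = 0.262) without the HF-PO pool, a smaller dip in both. A second Cldn2 probe set gave 2.21 for SI3 minus SI1 (adjusted p = 4.08e-05) and 1.96 for SI3 minus SI2 (adjusted p = 0.000278). Its SI2 minus SI1 difference was 0.26 (adjusted p = 0.236), of the opposite sign, so the probe sets share the distal excess and not the order of SI2 and SI1.

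Cldn15, the other cation pore, ran the opposite way and was the only one of the 8 tested genes that fell in SI3. Its signal was 7292 (HF-PO), 6663 (HF-OO) and 7067 (HF-SO) in SI3, against 9107, 10035 and 9314 in SI2 and 10643, 12557 and 11396 in SI1. The 3 segments did not overlap, with SI3 lowest and SI1 highest in each diet pool. Between SI3 and SI1 it fell by 0.72 ± 0.10 on the log2 scale (adjusted p = 0.00125 in limma), so that SI1 stood 1.64-fold above SI3. SI3 minus SI2 was -0.44 ± 0.10 (adjusted p = 0.0205), and SI2 minus SI1 was -0.28 ± 0.10 (adjusted p = 0.0962), which missed the threshold. The pore claudins ran opposite ways in each pool: SI3 minus SI1 was 1.45, 2.01 and 1.61 for Cldn2 and -0.54, -0.91 and -0.69 for Cldn15 in HF-PO, HF-OO and HF-SO.

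Of the sealing claudins, Cldn3 rose in SI3 against both other segments and did not pass the test between SI2 and SI1. Its signal was 14734 (HF-PO), 15504 (HF-OO) and 14464 (HF-SO) in SI3, against 10991, 10982 and 10245 in SI2 and 10309, 10144 and 10440 in SI1. SI3 lay above all other arrays, while SI2 and SI1 overlapped. SI3 exceeded SI1 by 0.53 ± 0.08, or 1.45-fold (adjusted p = 0.00212 in limma), and SI2 by 0.47 ± 0.08, or 1.39-fold (adjusted p = 0.00817). The difference between SI2 and SI1 was 0.06, with a 95% interval of -0.13 to 0.25 (adjusted p = 0.657). All 4 probe sets of Cldn3 passed between SI3 and SI1, with changes of 0.50 to 0.63, and between SI3 and SI2, with changes of 0.47 to 0.56.

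Cldn4, whose gene adjoins Cldn3 on chromosome 5 with no other coding gene between them, passed no test between segments. Its signal was 1062 (HF-PO), 910.4 (HF-OO) and 1007 (HF-SO) in SI3, 982.8, 958.2 and 1029 in SI2, and 870.2, 921 and 1367 in SI1. The segments overlapped, and the widest spread was within SI1, where HF-SO was the highest of all 9 arrays. SI3 minus SI1 was -0.06 (95% interval -0.39 to 0.28; adjusted p = 0.772 in limma), which leaves room for a change of Cldn4 in either direction, and 2 of 3 pools were lower in SI3.

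Cldn1, the sealing claudin best known from the barrier of the skin, was dim on all 4 of its probe sets. The brightest gave 53.7, 51.3 and 69.2 in SI3, 45.8, 72.5 and 35 in SI2, and 46.8, 16.1 and 49.1 in SI1 (HF-PO, HF-OO and HF-SO). These values overlap and lie below the array medians, and with the filter on dim probe sets left off SI3 minus SI1 was 0.54 ± 0.35 (adjusted p = 0.365 in limma).

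Cldn8, a claudin of tight epithelia such as the colon and the distal kidney tubule, was far brighter in SI3 than in SI2 or SI1. Its signal was 316.7 (HF-PO), 375.5 (HF-OO) and 456.6 (HF-SO) in SI3, against 64.8, 48.1 and 60.4 in SI2 and 37.5, 6.8 and 27.8 in SI1. The 3 segments did not overlap, and the SI2 and SI1 signals lay below the array medians. Its mean of 6.69 on the log2(signal + 16) scale missed the filter at 6.80, and whether it passed hung on its SI3 level, so its test comes from the fit of all 45037 probe sets without a filter. There SI3 exceeded SI1 by 3.39 ± 0.27 (adjusted p = 0.00151 in limma) and SI2 by 2.43 ± 0.27 (adjusted p = 0.0129), and SI2 minus SI1 was 0.96 (adjusted p = 0.164). The size depends on the pseudocount, since the SI1 signal is low: SI3 minus SI1 was 4.21 with a pseudocount of 1 and 2.35 with 64. Car1, a carbonic anhydrase of the large bowel that marks tissue from beyond the small intestine, was 77.3, 1292 and 1026 in SI3, 67.6, 293.7 and 7.3 in SI2 and 58.3, 21 and 47.5 in SI1. The SI3 array of HF-PO was the lowest of the SI3 arrays in both Car1 (77.3) and Cldn8 (316.7). Its Cldn8 signal lay above every SI2 and SI1 array. Markers of caecum and colon summed to 10968 to 11683 in SI3 and 9177 to 11198 in SI1. Most of this sum came from Slc26a3 (mean 5681 in SI3 and 7258 in SI1) and Car4 (4533 and 2168). Both were bright in all 3 segments, so the sum says little of tissue from beyond the small intestine. Of these 6 markers 2 were higher (Car1 and Car4) and 2 lower (Aqp8 and Slc26a3) in SI3 than in SI1. The shares of all tested genes were 25.2% and 20.4%. Aqp8 was 69, 144.9 and 104.1 in SI3 against 399.1, 239.7 and 283.5 in SI1 (HF-PO, HF-OO and HF-SO). Car1 changed by 3.17 ± 1.09 (adjusted p = 0.0499 in limma), and whether it passed the filter hung on its SI3 level. The part of tissue from beyond the small intestine in the change of Cldn8 was not tested.

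Cldn7, which also lies along the lateral membrane and binds the adhesion protein Epcam, rose in SI3 against both other segments. Its signal was 26763 (HF-PO), 27718 (HF-OO) and 26624 (HF-SO) in SI3, against 21466, 21093 and 20920 in SI2 and 17015, 19128 and 20202 in SI1. The 3 segments did not overlap. SI3 exceeded SI1 by 0.53 ± 0.09, or 1.44-fold (adjusted p = 0.00351 in limma), and SI2 by 0.35 ± 0.09, or 1.28-fold (adjusted p = 0.0335), while SI2 minus SI1 was 0.18 (adjusted p = 0.23). Its signals reached at most 51.1% of the highest signal on an array. With quantile normalization SI3 minus SI2 was 0.22 (adjusted p = 0.092 in limma), so that this call was lost.

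Cldn23, a little-studied claudin of the gut surface epithelium, was the only one of the 8 to pass between SI2 and SI1. Its signal was 3785 (HF-PO), 2889 (HF-OO) and 2455 (HF-SO) in SI3, against 2430, 2455 and 2192 in SI2 and 1488, 1332 and 1786 in SI1. SI1 lay below both other segments, and SI3 and SI2 met at 2455. SI3 exceeded SI1 by 0.97 ± 0.17, or 1.95-fold (adjusted p = 0.00375 in limma), with 1.34, 1.11 and 0.46 in the HF-PO, HF-OO and HF-SO pools. SI2 exceeded SI1 by 0.62 ± 0.17, or 1.54-fold (adjusted p = 0.0499), a call at the edge of the threshold: without the SI1 array of HF-PO it was 0.51 (adjusted p = 0.155), and it was lost on leaving out any 1 diet pool (adjusted p between 0.061 and 0.267). SI3 minus SI2 was 0.34 (adjusted p = 0.191).

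Cldn12, a claudin linked with Cldn2 to calcium passage between cells, had a small distal excess on 1 of its 2 probe sets. Its signal was 2208 (HF-PO), 2433 (HF-OO) and 2480 (HF-SO) in SI3, against 2103, 2085 and 2202 in SI2 and 1909, 1951 and 1814 in SI1. The segments did not overlap, but the steps were small. SI3 exceeded SI1 by 0.32 ± 0.09, or 1.25-fold (adjusted p = 0.0214 in limma), and the F test over the segments gave an adjusted p of 0.0521. The second probe set gave -0.02 (adjusted p = 0.902), and the call was lost on leaving out any 1 pool (adjusted p between 0.0514 and 0.144) with the mean of both probe sets (0.15, adjusted p = 0.26) and without the filter on dim probe sets (0.32, adjusted p = 0.103).

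Tjp1, the scaffold that the claudins bind, rose between SI3 and SI1. Its signal was 3486 (HF-PO), 3909 (HF-OO) and 3690 (HF-SO) in SI3, against 2990, 3134 and 3421 in SI2 and 2727, 2655 and 2588 in SI1. The 3 segments did not overlap. SI3 exceeded SI1 by 0.47 ± 0.09, or 1.39-fold (adjusted p = 0.00574 in limma), and this was 0.43 (adjusted p = 0.0682) without the HF-OO pool. SI2 minus SI1 was 0.26 (adjusted p = 0.103) and SI3 minus SI2 was 0.22 (adjusted p = 0.139), neither past the threshold.

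**Figure D2:**
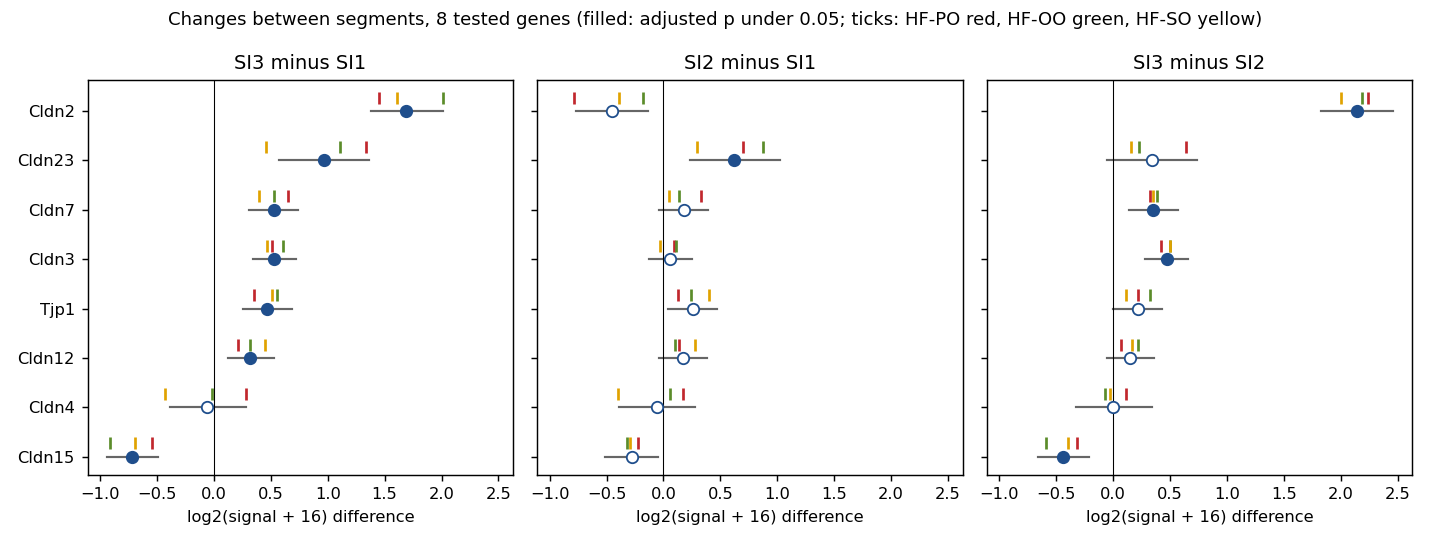
Changes of the 8 tested genes between segments, as differences of log2(signal + 16): SI3 minus SI1, SI2 minus SI1 and SI3 minus SI2. Circles are the limma estimates with 95% intervals, filled where the adjusted p is under 0.05, and ticks above them are the 3 diet pools. Cldn2 stands farthest to the right in both comparisons of SI3 and Cldn15 farthest to the left, while in SI2 minus SI1 only Cldn23 is filled.

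The calls between SI3 and SI1 held up better than those between SI3 and SI2. Without the SI1 array of HF-PO the same 7 genes passed between SI3 and SI1, with 1.83 for Cldn2, 0.85 for Cldn23, 0.53 for Cldn3 and for Tjp1, 0.46 for Cldn7, 0.36 for Cldn12 and -0.77 for Cldn15, and Cldn4 gave -0.20 (adjusted p = 0.301 in limma). Without that array none of the 8 passed between SI2 and SI1, where the changes were 0.51 for Cldn23, 0.32 for Tjp1, 0.21 for Cldn12, 0.10 for Cldn7, 0.06 for Cldn3, -0.20 for Cldn4, -0.31 for Cldn2 and -0.34 for Cldn15. Leaving out a whole diet pool left 6 calls without HF-PO, 5 without HF-OO and 6 without HF-SO, with Cldn12 lost each time and Tjp1 lost without HF-OO. Between SI3 and SI2, leaving out any 1 pool left Cldn2 called and Cldn3, Cldn7 and Cldn15 uncalled, and without the filter these 3 were uncalled too. The F test over the segments passed 3 members without HF-PO, 1 without HF-OO and 5 without HF-SO.

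Over the 9 arrays, Cldn3 and Cldn7 had the most similar profiles of the claudins (Pearson r = 0.94 on the log2(signal + 16) scale), Cldn12 and Tjp1 correlated at 0.96, and Cldn15 ran against Cldn3 and Tjp1 (r = -0.93 each). Cldn4 correlated with none of the 7 others beyond -0.31 to 0.14. All these values share the arrays and the segment differences, so they describe the profiles and carry no test. Among all 10977 tested genes, the 3 most like Cldn2 were Msmo1, an enzyme of cholesterol synthesis (r = 0.995), the ceramidase Asah1 (0.992) and the ribosomal gene Rplp2 (0.990), all with their lowest segment mean in SI2. The 3 most like Cldn15 were Nrp1 (0.992), Ifi30 (0.991) and Ugt2b34 (0.991), of which the semaphorin receptor Nrp1 fell by 2.65 between SI3 and SI1. Those most like Cldn3 were Elovl1 (0.996), Tm7sf2 (0.995) and Suox (0.990), and those most like Cldn7 were Diaph1 (0.991), Syt7 (0.991) and Lhfpl2 (0.990). For Cldn23 they were Eif4g3 (0.984), Mark2 (0.974) and Med19 (0.971), and for Tjp1 they were Cdc25b (0.994), Stambpl1 (0.991) and Melk (0.990).

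The rest of the claudin family was dim. Of 18 other claudin genes searched for, 12 were on the array with a probe set of their own and 2 were tested, Cldn5, the claudin of blood vessels, and Cldn22. Neither passed the test: SI3 minus SI1 was -0.21 (adjusted p = 0.508 in limma) for Cldn5 and -0.32 (adjusted p = 0.548) for Cldn22. The other 10 lay below the filter. Without it 2 of them passed, Cldn16, whose gene adjoins Cldn1 (0.94 ± 0.17; adjusted p = 0.0186), and Cldn14 (0.81 ± 0.20; adjusted p = 0.0497), on signals of 32.7 to 52.7 in SI3 against 4.1 to 33.1 in SI1 for Cldn16 and 60 to 110 against 35.3 to 51.5 for Cldn14. The group means of Cldn18, the claudin of the stomach, were 57.87 in SI3, 45.8 in SI2 and 57.1 in SI1.

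The other membrane proteins of the tight junction were mostly higher in SI3 too. Of 8 tested, 7 rose between SI3 and SI1 and 1 fell, with a median of 0.52. Among all tested genes 25.2% rose and 20.4% fell, with a median of 0.07. The largest rises were those of Cxadr, a receptor for viruses that sits in the junction (1.08; adjusted p = 0.000178 in limma), and Lsr, which brings tricellulin to the corners where 3 cells meet (0.86; adjusted p = 0.000271). The gene that fell was Esam (-1.18; adjusted p = 0.000918), an adhesion molecule of endothelium, whose signal was 121.7 to 171.2 in SI3 against 310.5 to 394.9 in SI1. Named beside these for its role, occludin (Ocln), the first membrane protein found in tight junctions, had 3669 to 3943 in SI3 against 2595 to 2890 in SI1, a change of 0.49 (adjusted p = 0.00258). With the mean of all probe sets of a gene 4 of the list rose, and 6 rose and 1 fell without the SI1 array of HF-PO.

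The plaque and polarity proteins, which lie under the membrane with Tjp1, were mixed. Of 17 tested, 8 rose and 2 fell between SI3 and SI1, and 7 did not pass, with a median of 0.26. The shares over all tested genes were 25.2% higher and 20.4% lower. The angiomotin-like Amotl1 fell by 0.91 (adjusted p = 0.000878 in limma), while the actin-binding afadin (Afdn) rose by 0.88 (adjusted p = 0.000334) and the polarity kinase Prkcz by 0.82 (adjusted p = 0.00154). Tjp3, the other ZO family scaffold tested, rose by 0.78 (adjusted p = 0.000655), with 3395 to 3566 in SI3 against 1957 to 2170 in SI1. The kinase Prkci, a close relative of Prkcz, was the other gene that fell (-0.40; adjusted p = 0.00896). Without the HF-OO pool 4 plaque genes rose, and 7 rose and 2 fell without the SI1 array of HF-PO. The 2 falls became 1 without the filter, with gene means, without HF-OO and without HF-SO.

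Adherens junctions and desmosomes, the adhesive contacts below the tight junction, had 9 of 17 tested genes higher and 1 lower in SI3 than in SI1, with a median of 0.36. Over all tested genes 25.2% were higher and 20.4% lower. The desmosomal linker Evpl rose by 1.33 (adjusted p = 0.000799 in limma) and the plakophilin Pkp3 by 0.78 (adjusted p = 0.00102), and the adhesion molecule Nectin1 fell by 0.67 (adjusted p = 0.0156). E-cadherin (Cdh1), the core of the adherens junction, gave 0.07 (adjusted p = 0.519), with 14471 to 15257 in SI3 against 13607 to 14664 in SI1. Without the HF-OO pool 5 genes of this list rose, and 7 rose and 1 fell without the SI1 array of HF-PO. The call of Nectin1, the only fall, was lost without the filter, with gene means, without HF-OO and without HF-SO.

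Of 7 genes for proteins that stabilise or cleave claudins, 2 rose and 5 did not pass, with a median of 0.20. This is near the share over all tested genes, of which 25.2% rose and 20.4% fell between SI3 and SI1. Epcam, which protects Cldn7 from breakdown, was 24996 ± 643 in SI3 against 18849 ± 1526 in SI1 (mean ± SD, n = 3 pools), a change of 0.41 (adjusted p = 0.00709 in limma). Spint2, an inhibitor of the proteases that cleave Epcam, rose by 0.47 (adjusted p = 0.00824). Neither call held without the filter, without HF-PO or without HF-OO, and 2 genes rose without the SI1 array of HF-PO. Among 9 transcription factors of the gut epithelium, 3 rose and 3 fell, against the same 25.2% and 20.4% of all genes. The largest changes were those of Gata4 at -1.79 (adjusted p = 8.65e-05 in limma), Cdx1 at 1.32 (adjusted p = 4.19e-05) and Gata6 at -0.86 (adjusted p = 0.000575). Between SI2 and SI1 and between SI3 and SI2, the membrane and plaque lists had fewer calls than between SI3 and SI1: 4 higher and 0 lower, then 3 higher and 1 lower, of the 8 membrane proteins, and 2 higher and 2 lower, then 4 higher and 0 lower, of the 17 plaque proteins. The stabilisers had 2 higher and 0 lower between SI3 and SI2, as between SI3 and SI1, and 0 higher and 1 lower between SI2 and SI1. All tested genes also had fewer calls in these comparisons. Of them 7.23% were higher and 7.83% lower in SI2 than in SI1, and 11.5% higher and 11.9% lower in SI3 than in SI2.

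**Figure D3:**
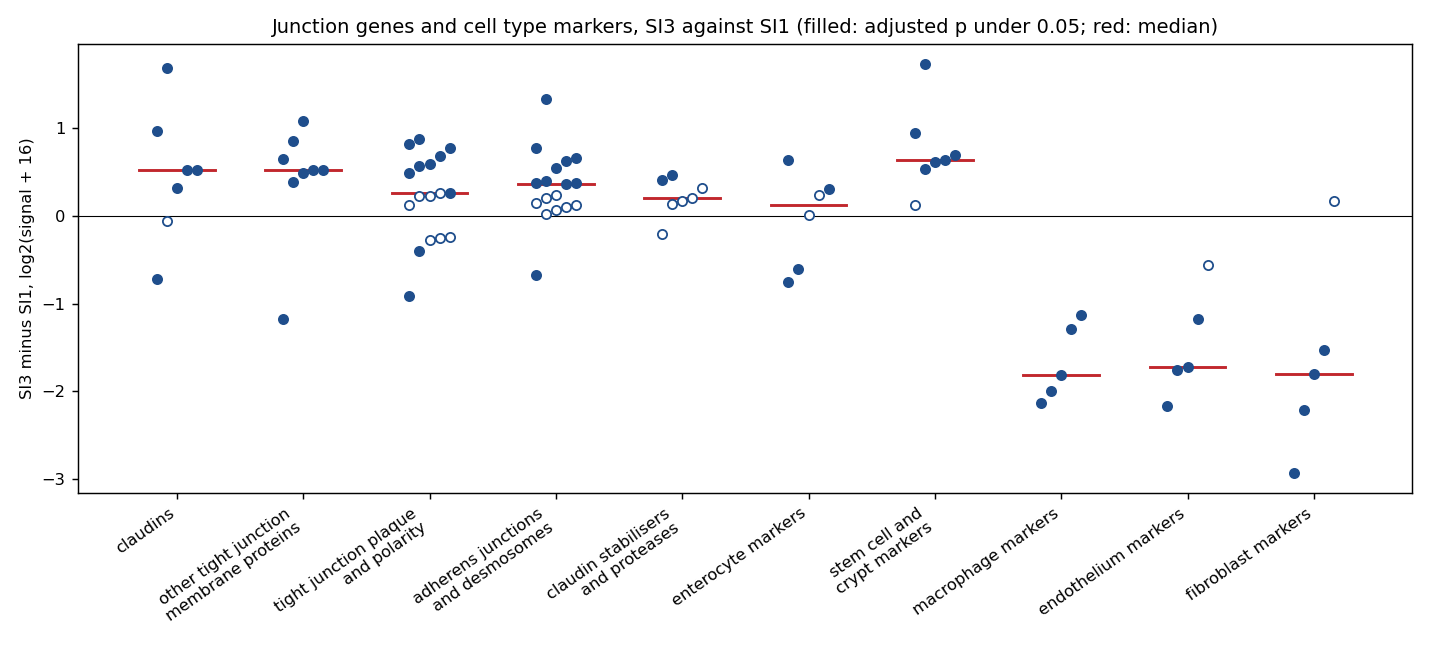
SI3 minus SI1 on the log2(signal + 16) scale for the tested genes of each list, 1 point a gene, filled where the adjusted p is under 0.05, with the list's median in red. The 5 junction lists drawn have medians between 0.20 and 0.53 (the claudins among the members), while macrophage, endothelium and fibroblast markers have medians of -1.82, -1.72 and -1.80. Stem cell and crypt markers have a median of 0.64, above every junction list, and enterocyte markers one of 0.12.

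Cell type markers also differed between the segments. The counts below stand against 25.2% of all tested genes higher and 20.4% lower in SI3 than in SI1. Summed signals of macrophage markers were 2209 to 2559 in SI3 and 8434 to 9492 in SI1 (0 of 5 tested higher, 5 lower), those of fibroblast markers 1657 to 2035 and 5452 to 6043 (0 of 5 higher, 4 lower), and those of endothelium markers 488.1 to 569.1 and 1610 to 1883 (0 of 5 higher, 4 lower). T and intraepithelial lymphocyte markers summed to 4688 to 6943 in SI3 and 14474 to 18652 in SI1 (7 of 7 lower). Goblet, Paneth and crypt markers ran the other way, with 195437 to 209031 in SI3 and 125494 to 145753 in SI1 for goblet cells (7 of 8 higher), 90978 to 107930 and 28629 to 37776 for Paneth cells (5 of 5 higher), and 15892 to 18582 and 9134 to 12355 for stem and crypt cells (6 of 7 higher). Enteroendocrine markers went both ways, at 21916 to 23560 in SI3 and 17177 to 17819 in SI1 (4 of 10 higher, 4 lower), and tuft cell markers were at 797 to 1033 and 804.2 to 880.1 (1 of 4 higher). B cell and follicle markers were also higher in SI3, at 2196 to 2648 against 1186 to 1234 in SI1 (6 of 6 higher). Fcer2a, 1 of these 6, was dim in SI1 (20 to 77.3, against 169.4 to 230.6 in SI3), and its passing the filter hung in part on its SI3 level. Enterocyte markers summed to 174844 to 190716 in SI3 and 163582 to 197659 in SI1, with 2 of 6 higher and 2 lower. Anpep (0.64, adjusted p = 0.00159 in limma) and Fabp2 (0.31, adjusted p = 0.0415) rose. Lct (-0.75, adjusted p = 0.0022) and Alpi (-0.61, adjusted p = 0.00431) fell. Vil1 (0.24, adjusted p = 0.0962) and Krt20 (0.01, adjusted p = 0.973) did not pass. No marker was at 0, since the lowest deposited signal was 0.1. The part of these cell types in the changes of the claudins, Tjp1 and the junction lists was not tested.

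Diet was compared with 1 array for each oil and segment, so it has no test. None of the 8 tested genes was set apart by an oil in any segment, where set apart means at least 1.5-fold from both other oils in the same direction. Of all 10977 genes, 5.13% were set apart in SI3, 4.13% in SI2 and 4.04% in SI1. The median ratio of the highest to the lowest diet was 1.12 in SI3, 1.09 in SI2 and 1.18 in SI1 for the 8 genes, against 1.18, 1.17 and 1.18 for all genes.

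The nearest to being set apart was Cldn4 in SI1, where HF-SO (1367) stood 1.48-fold from the nearer of the other oils (870.2 in HF-PO and 921 in HF-OO). In SI3 the order differed, with 1062 in HF-PO, 910.4 in HF-OO and 1007 in HF-SO. Cldn23 in SI3 was highest in HF-PO (3785), at 1.31-fold from the nearer oil, but not in SI2 (2430) or in SI1 (1488), where another oil was higher. Cldn2 was lowest in HF-PO in SI3 (4506) and in SI2 (941.3), and its second probe set gave 1168 in HF-PO against 1717 in HF-OO and 1751 in HF-SO in SI3, a gap of 1.46-fold. In SI1 the first probe set was not lowest in HF-PO (1635, against 1422 in HF-OO). The second probe set was lowest in HF-PO in SI2 (366.4) and in SI1 (281.9) too. Of the dim genes, Cldn8 (6.8) and Cldn1 (16.1) were low in HF-OO in SI1, at 1.92-fold and 1.96-fold from the nearer oil, on signals far below the array medians.

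**Figure D4:**
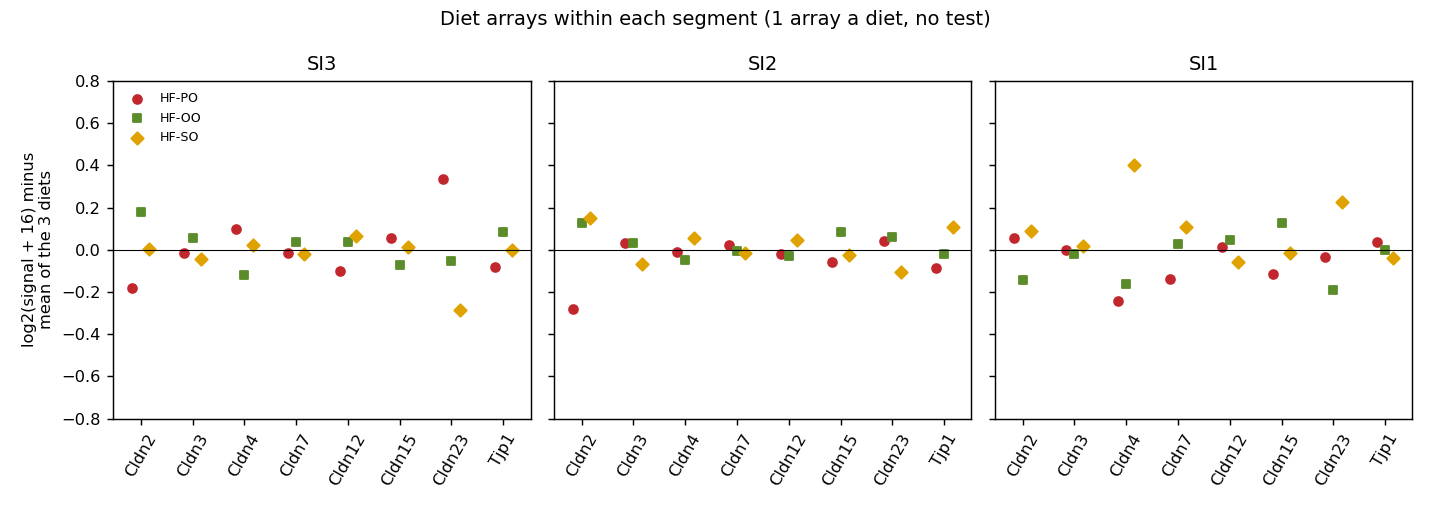
The 3 diet arrays of each segment for the 8 tested genes, as log2(signal + 16) minus the mean of the 3 diets (1 array a diet, no replicates). Most points lie close to 0, with Cldn4 of HF-SO in SI1 and Cldn23 of HF-PO and HF-SO in SI3 farthest from it.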

How the data were processed

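The authors deposited a linear intensity for each probe set on each array, made with MAS5 per the submitters' processing notes; its version is not given in the sources used here. Of 45101 probe sets, 64 array controls were left out; 34945 of the others carried 1 gene symbol. Signals were analysed as log2(signal + 16), and the 22519 probe sets with a mean at or above the median (6.80) were tested, which covered 10977 genes. limma 3.58.1 (R 4.3.3) fitted segment with the diet pool as a block, since SI3, SI2 and SI1 of a diet come from 1 pool of 6 mice. The 4 residual degrees of freedom also hold any diet difference in the segment effect. Tests were two-sided, with Benjamini-Hochberg adjustment over all probe sets tested. The fit was tested on simulated data. Departures from segment means correlated at -0.049 to 0.151 within a pool and -0.126 to 0.049 between pools. Summaries used pandas 2.3.3 and numpy 2.4.6 in Python 3.11.15, and figures used matplotlib 3.10.9. The number of arrays limits the precision.

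The members, the lists and the naming rule were chosen with earlier results of these data known. The rule named every member, each other claudin tested, the 3 largest called changes between SI3 and SI1 in each list, and the 3 genes most correlated with each member past the F test. Cell type markers were named where the text sets their values beside a result. Ocln, Tjp3, Prkci, Cdh1, Cldn14, Cldn16 and Cldn18 were named beside the rule after their values were seen. Alternatives were pseudocounts of 1 and 64, no filter, quantile normalization, no block, an intensity trend, gene means, and leaving out pools.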

Additional observations from a re-analysis of the deposited data

How the results depend on the processing

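Of 264 values of a tested member and comparison under an alternative, 233 kept their side of the threshold, 26 lost the call and 5 gained it. Called values changed sign in 0 cases. Only 12 of the 24 comparisons of a tested member were called in the reported fit, and only these could lose a call. Between SI3 and SI1, 7 members changed in the reported fit, and leaving out a pool gave 5 to 7 calls, counting also the fit without the SI1 array of HF-PO alone, which was chosen after seeing the data. Between SI2 and SI1 the count of 1 became 0 with a pseudocount of 1, without the filter and with quantile normalization. It was 3 with a pseudocount of 64 (Cldn2 and Cldn8 added) and 4 with an intensity trend (Cldn2, Cldn15 and Tjp1 added). On leaving out a pool or that SI1 array it was 0 to 0. The fits with a pseudocount of 64 and without the filter also tested Cldn8. Their counts, those of the F test included, are therefore over more genes than the 8 of the reported fit. With a pseudocount of 64 the entry of Cldn8 hung on its SI3 level. Between SI3 and SI2 the count of 4 became 2 without the filter, which tests 45037 probe sets in place of 22519. Those 2 were Cldn2 and Cldn8, and Cldn8 was not tested in the reported fit. The count was 1 to 4 on leaving out a pool or that SI1 array, the fits without a whole pool having fewer samples. With quantile normalization the count between SI3 and SI2 was 3, with Cldn7 lost. For the F test the count of 6 became 1 to 6 on leaving out a pool or that array, with 3 left without HF-PO and 1 without HF-OO, 4 without the filter, 8 with a pseudocount of 64, and 7 without the block and with an intensity trend. The cause of the other shifts was not tested. Without the replicate block, 7 members changed between SI3 and SI1, 1 between SI2 and SI1 and 4 between SI3 and SI2, the same genes as with it. Of the lists, rises among tight junction membrane proteins numbered 4 in place of 7 with gene means, plaque proteins 4 in place of 8 and adherens genes 5 in place of 9 without HF-OO, and stabilisers 0 in place of 2 without the filter, HF-PO or HF-OO. Falls numbered 1 in place of 2 among plaque proteins and 0 in place of 1 among adherens genes without the filter, with gene means, without HF-OO and without HF-SO. None of the 8 tested members was set apart by diet under any alternative run. With 3 pools a segment and 1 array a diet, small changes such as that of Cldn12 are at the limit of what the arrays resolve.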
